A study of Rattus norvegicus with 30 samples.

Results

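The comparison described here asked whether the effect of 250 µM dioctyl phthalate on the RNA of cultured rat hepatocytes differed between 48 h and 24 h of exposure. For each gene, the treated minus vehicle difference at 24 h was subtracted from the same difference at 48 h, and this quantity is called the difference between times below. A positive value means that the treated level stood higher against vehicle, or less far below it, at 48 h than at 24 h. The comparison used the means of 20 of the 30 arrays of the series and was computed for all genes. These were 5 in each of 4 groups (vehicle and 250 µM, at 24 and 48 h). The spread behind its p-values was estimated from all 30 arrays. Of 14217 genes with a probe set naming no other gene, 10528 passed a filter on low signal and were tested. Each gene was read from 1 probe set on the log2(signal + 1) scale, and "log2 signal" below means that scale.

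The cells were primary hepatocytes of male Sprague Dawley rats, bought frozen, plated on collagen under Matrigel and dosed on culture day 3. All groups, vehicle included, received 1% DMSO. The other 10 arrays held cells given 1000 µM for the same times. Every array was 1 well, how many animals or vials they came from is not stated, and therefore p-values measure the spread between wells, which may be technical. In RNA from whole wells, fewer cells of a type and less RNA per cell cannot be told apart.

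Dioctyl phthalate belongs to the phthalate esters, which liver cells hydrolyse to monoesters, and several of those monoesters activate the nuclear receptor PPARα. In rodent liver PPARα, paired with the retinoid X receptor, switches on genes for fatty acid uptake, peroxisomal and mitochondrial β-oxidation and microsomal ω-oxidation. Its activation is also known to lower acute phase gene expression. Separately, hepatocytes in culture lose part of their drug-metabolising and transport functions over days, so vehicle levels move too, and a difference between times can arise from either side.

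The hepatocyte label was checked against marker genes. All 13 hepatocyte markers passed the signal filter, whose limit was a mean log2 signal of 7.88, with albumin (Alb) at a mean of 15.94 to 16.03 in the 4 groups. The leukocyte marker Ptprc, the endothelial marker Pecam1, the stellate cell marker Lrat and the cholangiocyte markers Krt19 and Krt7 did not pass. Epcam (13.3 to 13.68), Vim (11.92 to 13.62) and the Kupffer cell and leukocyte marker Lyz2 (12.77 to 12.97) were high. The filter was passed by 11 of 21 Kupffer cell and leukocyte, 10 of 19 stellate, 6 of 15 endothelial and 5 of 10 cholangiocyte markers. RNA of other liver cells is therefore not excluded. Among the markers of other liver cells that passed, the effect differed between times for 1 of 10 stellate and 0 of 11 Kupffer cell and leukocyte genes. It differed for 0 of 6 endothelial and 0 of 5 cholangiocyte genes. The share over all tested genes was 8.36%, and lists this short cannot tell these counts from it.

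Before any gene is described, the vehicle arrays at 48 h need to be set out, because 4 of the 5 stood apart in RNA quality. The 3' to 5' signal ratio of β-actin, which rises as RNA is degraded or copied incompletely, had log2 values of 2.44, 1.74, 1.70, 1.04 and 1.66 in vehicle replicates 1 to 5 at 48 h. Replicates 1, 2, 3 and 5 lay above every vehicle array at 24 h, whereas replicate 4 lay among them. Group means in vehicle were 1.72 ± 0.494 at 48 h and 1.14 ± 0.084 at 24 h (SD, n = 5 each) (exact two-sided permutation p = 0.0397, 0.119 adjusted over 12 tests). Under 250 µM it was 1.15 ± 0.157 at 48 h and 1.16 ± 0.0783 at 24 h (exact p = 0.96). Replicate numbers are in accession order and only name arrays. The part of this ratio in the results was not tested, and each pathway list and each gene described by its arrays also carries its count or value from the fit in which replicate 4 alone stood for vehicle at 48 h. Such a fit has a larger standard error, so a call lost there does not by itself show a smaller change.

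The effect of 250 µM differed between times for 880 of 10528 genes (8.36%, limma adjusted p under 0.05). With the spread estimated from the 20 arrays of the 4 groups alone, 606 genes passed. Among the 880, the difference was positive for 404 genes (3.84%) and negative for 476 (4.52%), and it reached 2-fold in 33. The largest negative value belonged to Il1r2, the decoy receptor for interleukin-1, and the largest positive one to Cyp3a2, a drug-metabolising cytochrome P450. The split by direction depended on scaling: positive genes were 45.9% as deposited, 49.4% after quantile normalization and 69% with array medians centred, and none of the 880 turned direction under either.

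For most of these genes the effect did not pass the test at 24 h, which does not show that it was absent. The effect passed the test at 48 h only for 552 genes, at both times in the same direction and larger at 48 h for 188, and at both times but smaller at 48 h for 14. It passed at 24 h only for 85 genes, was opposite at the 2 times for 26, and passed at neither time for 15. Over all tested genes, 19.3% differed from vehicle at 24 h and 41.2% at 48 h, comparisons that share the arrays of the interaction.

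Sorted by which level moved with time, the vehicle level alone passed for 504 of the 880 genes, the treated level alone for 226, both in opposite directions for 44, both in the same direction for 46, and neither for 60. For reference, 28.1% of all tested genes changed with time in vehicle and 13.4% under 250 µM. The vehicle-only genes moved by a median size of 0.41 in vehicle and 0.09 under 250 µM, and the treated-only genes by 0.10 and 0.37. Of the 552 genes whose effect passed at 48 h only, 350 were vehicle-only and 123 treated-only. The sorting uses the same values as the test and describes the genes without adding support.

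**Figure D1:**
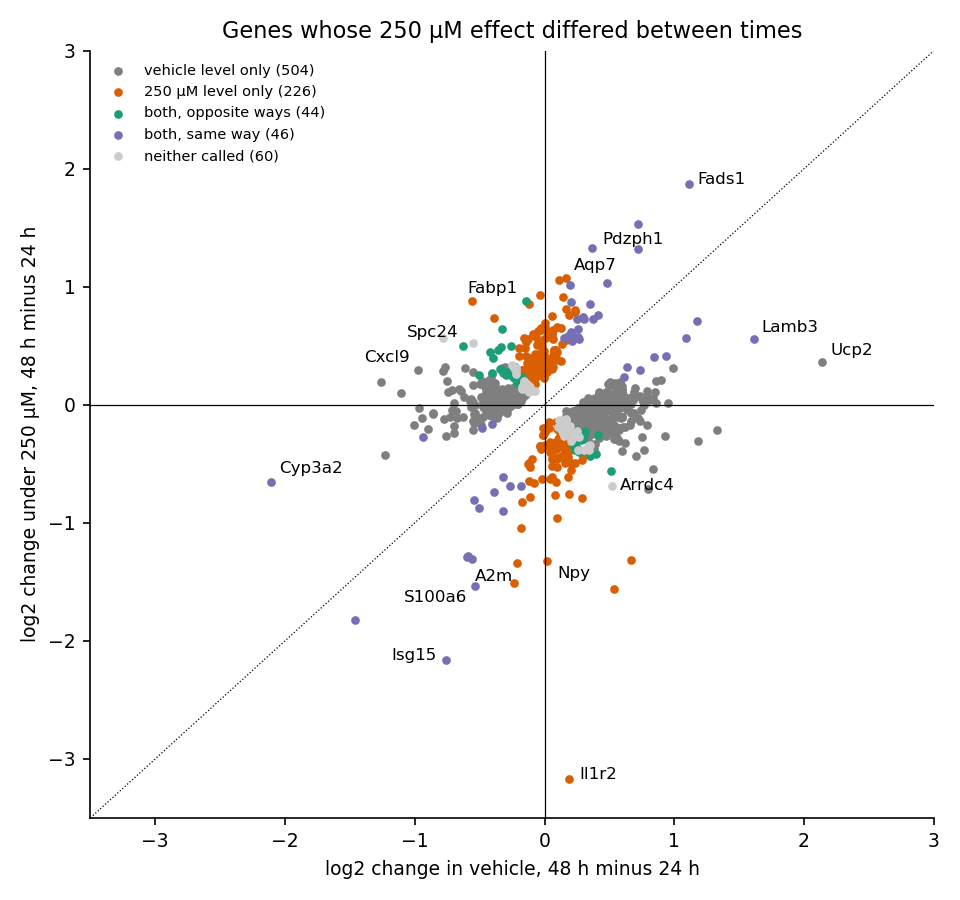
Each point is 1 of the 880 genes whose 250 µM effect differed between times; the horizontal axis is the log2 change from 24 to 48 h in vehicle, the vertical axis the same change under 250 µM, and colour gives which change passed the test. Points far above or below the dotted line of equal change have a large difference between times; Il1r2 lies lowest, near 0 in vehicle, and Cyp3a2 farthest left.

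In the 1000 µM arrays, which enter no 250 µM contrast, most treated-only genes moved the same way. Of the 226 treated-only genes, 211 moved in the same direction from 24 to 48 h under 1000 µM, 108 of them past the test, and 0 passed in the opposite direction. Over all 1408 genes that changed with time under 250 µM, 1351 had the same direction under 1000 µM and 904 passed. Among all 10528 genes, 7265 had the same direction at both doses, and 18% changed with time under 1000 µM.

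Vehicle replicate 4 stood nearest the 24 h vehicle mean of all 48 h vehicle arrays for 406 of the 504 vehicle-only genes and for 61 of the 226 treated-only genes. In the median vehicle-only gene, replicates 1, 2, 3 and 5 had moved from the 24 h mean by 0.52, 0.45, 0.48 and 0.44 on the log2 scale, and replicate 4 by 0.15. Vehicle-only genes were selected and signed by the mean change of these same 5 arrays, to which replicates 1, 2, 3 and 5 contribute most. This favours larger values in those 4 arrays. The gap to replicate 4, and the count of 406, therefore follow in part from the selection. The median treated-only gene had moved by 0.35 to 0.42 in the 5 arrays of 250 µM and by 0.16 to 0.25 in those of 1000 µM. These genes were selected and signed by their 250 µM change in the same arrays, which favours larger values there. The ranges therefore do not compare the doses.

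**Figure D2:**
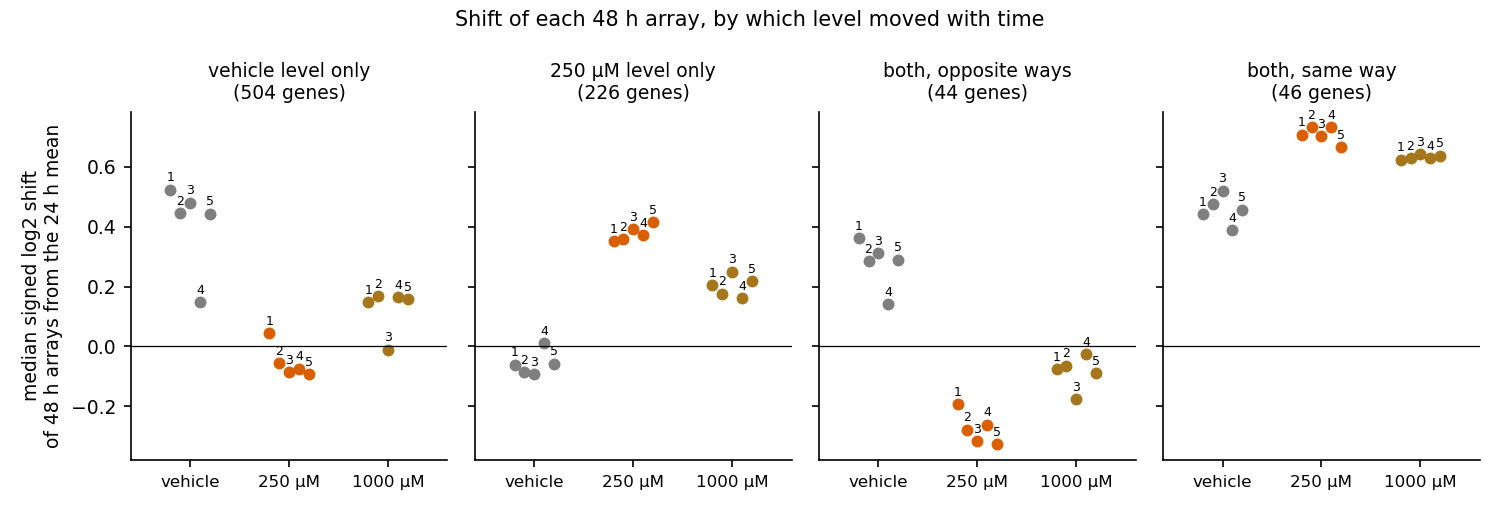
Each numbered point is 1 array at 48 h; the vertical axis is the median shift from the 24 h mean of its own dose on the log2 scale, signed so that each gene's mean vehicle change with time is positive, or its mean 250 µM change in the treated-only genes. Vehicle replicate 4 shifted by 0.15 in the vehicle-only genes while the other vehicle arrays shifted by 0.44 to 0.52. Those genes were selected by the mean change of these same arrays. All 5 arrays of 1000 µM shifted upward in the treated-only genes.

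With replicate 4 as the only vehicle array at 48 h, 58 genes passed, of which 44 were among the 880. These 44 held 6 of the 504 vehicle-only genes (1.19%), 19 of the 226 treated-only genes (8.41%), 6 of the 44 that moved in opposite directions (13.6%) and 12 of the 46 that moved in the same direction (26.1%). Fits with another single vehicle array, which rest on as many arrays, called 1165, 383, 570 and 336 genes for replicates 1, 2, 3 and 5. Without replicate 4, and with the other 4, the count was 1789. Of the 880 genes, 850 kept their direction with replicate 4 alone, among them 225 of the 226 treated-only and 477 of the 504 vehicle-only genes. The median size of the difference there, in the direction of the fit with all arrays, was 0.36 for treated-only and 0.20 for vehicle-only genes. It was 0.45 for both with all arrays. Vehicle-only genes were selected by a vehicle change that rests mostly on the 4 arrays left out here, and treated-only genes were not. A larger loss of calls and size among vehicle-only genes therefore follows in part from the sorting. With the β-actin ratio as a covariate 248 genes passed, 214 of them among the 880, and all 880 kept their direction.

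**Figure D3:**
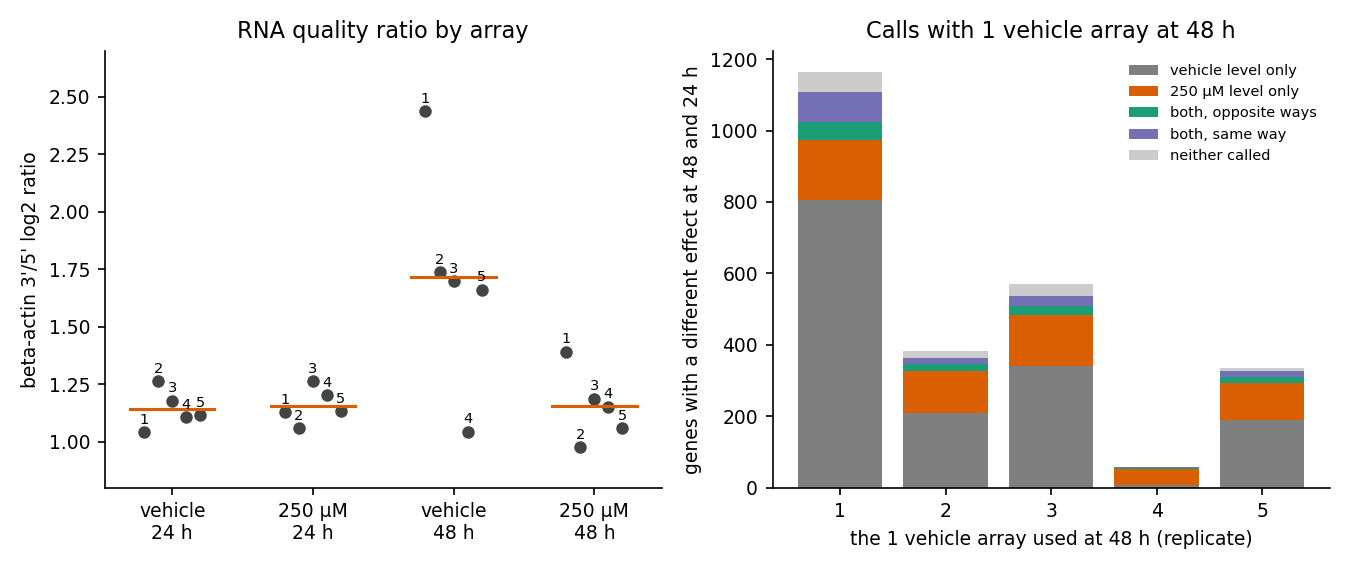
Left: log2 ratio of 3' to 5' β-actin signal for each array, numbered by replicate, with group means as lines. Right: genes whose effect differed between times when 1 vehicle array alone was used at 48 h, by which level moved; replicate 4 gave 58 genes and the other arrays 336 to 1165.

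By their medians, genes of fatty acid oxidation stood above vehicle at both times, and for part of them the effect was larger at 48 h. Of 22 tested peroxisomal β-oxidation genes, 7 had a positive and 0 a negative difference between times. Of 24 genes of mitochondrial β-oxidation and ketogenesis, 6 were positive and 1 negative. Of 47 other PPARα-linked genes of ω-oxidation and lipid handling, 2 were positive and 3 negative. The shares that passed in these lists were 31.8%, 29.2% and 10.6%, against 8.36% of all genes. Median effects of 250 µM were 1.05 at 24 h and 1.10 at 48 h for the peroxisomal list, 0.76 and 0.93 for the mitochondrial list, and 0.56 and 0.78 for the lipid handling list, against -0.03 and -0.07 over all tested genes. With vehicle replicate 4 alone at 48 h, 1, 1 and 3 members passed, all positive.

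Fabp1 encodes the liver fatty acid binding protein, which carries fatty acids through the hepatocyte cytosol and is a long-known PPARα target. Its log2 signal in vehicle was 12.99, 13.17, 12.97, 13.10 and 12.98 at 24 h and 12.97, 12.86, 12.88, 12.91 and 12.87 at 48 h. Under 250 µM it was 14.68, 14.72, 14.61, 14.55 and 14.76 at 24 h and 15.52, 15.45, 15.63, 15.53 and 15.58 at 48 h. Every treated array lay above every vehicle array, and every treated array at 48 h lay above all those at 24 h, while the vehicle arrays of both times met at their edges. The effect was 1.62 ± 0.05 (SE) at 24 h and 2.64 ± 0.05 at 48 h, a difference of 1.02 ± 0.07 (limma adjusted p = 1.91e-11). With replicate 4 as the only vehicle array at 48 h it was 1.01 ± 0.10.

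The Fabp1 promoter is shown because the members that rose together include this classical target and the binding element of PPARα can be searched for by its letters. The motif, AGGNCA written 2 times in the same direction with 1 base of any kind between, was sought on both strands in windows from 250 bases before to 50 bases after each RefSeq start (GRCr8), and was present in 0.415% of 33469 windows. The genes looked at were chosen after their values were seen. Of Fabp1, Acot8, Ehhadh, Acot1, Cpt1a, Pdk4 and Ucp2, the Fabp1 window alone held a match, in capitals, on the opposite strand and beginning 77 bases before the start; Aqp7 and Cyp4a1 had no entry. A match describes the letters and is not a measured site, and no match says only that these letters are not in this window. The window lies at chr4:104749090-104749389 on the plus strand.
Fabp1: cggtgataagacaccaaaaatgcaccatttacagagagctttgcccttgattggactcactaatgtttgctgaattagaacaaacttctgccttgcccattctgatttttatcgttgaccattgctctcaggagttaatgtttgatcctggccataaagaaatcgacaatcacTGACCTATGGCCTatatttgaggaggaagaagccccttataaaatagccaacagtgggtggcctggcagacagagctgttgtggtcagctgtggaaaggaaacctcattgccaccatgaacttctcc

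Aqp7, an aquaporin that passes glycerol, rose with time in treated wells. Vehicle arrays had log2 signals of 10.64, 10.57, 10.72, 10.56 and 10.70 at 24 h and 10.85, 10.67, 10.77, 10.98 and 10.73 at 48 h. Treated arrays had 11.79, 12, 11.95, 11.90 and 11.76 at 24 h and 12.82, 13.10, 12.77, 13.01 and 13.06 at 48 h. The vehicle arrays of both times overlapped and the treated ones did not. The difference between times was 0.91 ± 0.10 (SE, adjusted p = 4.03e-07), from effects of 1.25 and 2.15, and was 0.73 with replicate 4 alone.

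Among peroxisomal enzymes, Acot8, which releases acyl groups from coenzyme A, had an effect of 0.91 at 24 h and 1.63 at 48 h, and its vehicle level did not pass the time test. Decr2, which reduces dienoyl-CoA intermediates of unsaturated fatty acids, went from 1.08 to 1.59 and was also treated-only. Acot12, an acetyl-CoA hydrolase counted with this list, went from 1.33 to 1.97, but there the change with time was in vehicle (-0.43), where replicate 4 read 12.09 against 11.50 to 11.96 in the other 48 h arrays. In the mitochondrial list, Acads, the short-chain acyl-CoA dehydrogenase, went from 0.58 to 0.96 with a treated-only rise, and Bdh1, which makes 3-hydroxybutyrate, from 0.57 to 1.43 with a rise under treatment and a fall in vehicle. Etfa, an electron acceptor of the dehydrogenases, went from 0.24 to 0.63 with a fall in vehicle alone.

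Several strongly induced genes of fatty acid oxidation did not gain over vehicle with time. Ehhadh, the peroxisomal bifunctional enzyme, had vehicle log2 signals of 9.98, 10.17, 10.36, 10.46 and 10.29 at 24 h and 12.13, 11.62, 11.16, 10.74 and 11.71 at 48 h. Its treated arrays read 14.17, 14.27, 14.15, 14.10 and 14.43 at 24 h and 15.23, 15.00, 15.17, 15.08 and 15.19 at 48 h. All arrays of both kinds were higher at 48 h than at 24 h, and in vehicle at 48 h replicate 4 was the lowest. Effects were 3.97 at 24 h and 3.66 at 48 h, and their difference of -0.31 ± 0.20 missed the threshold (adjusted p = 0.361). It was 0.43 with replicate 4 as the only vehicle array at 48 h, a turn of direction.

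Cyp4a1, the fatty acid ω-hydroxylase, had a smaller effect at 48 h. Vehicle arrays read 12.73, 12.95, 12.69, 13.13 and 12.81 at 24 h and 13.94, 13.76, 13.69, 13.53 and 13.61 at 48 h. Treated arrays read 15.59, 15.63, 15.43, 15.34 and 15.69 at 24 h and 15.92, 15.98, 15.90, 15.91 and 15.99 at 48 h. Both levels rose without overlap between times, the vehicle level by more. The effect went from 2.67 to 2.24, a difference of -0.44 ± 0.11 (adjusted p = 0.0159) that did not pass with replicate 4 alone (-0.26).

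Ucp2, an uncoupling protein of the mitochondrial inner membrane, showed the same shape at low signal. Its vehicle log2 signals of 5.67, 6.22, 6.03, 7.12 and 5.20 at 24 h all lay under the filter limit, and at 48 h they were 8.65, 8.11, 7.88, 7.19 and 9.12. Treated arrays read 9.76, 9.73, 9.75, 9.59 and 9.64 at 24 h and 10.26, 10.03, 9.81, 10.24 and 9.97 at 48 h. The effect was 3.64 at 24 h and 1.87 at 48 h, with a difference of -1.77 ± 0.42 (adjusted p = 0.00803), or -0.08 with each array value under the limit raised to it. Replicate 4 was the lowest vehicle array at 48 h, and with it alone the difference was -0.77 and did not pass. Acot1, a cytosolic acyl-CoA thioesterase with effects of 7.13 and 6.68, Cpt1a, the carnitine palmitoyltransferase of mitochondrial entry (1.13 and 1.01), and Pdk4, the kinase that inhibits pyruvate dehydrogenase (2.98 and 2.69), did not pass. The Acot1 vehicle arrays at 24 h (6.67 to 7.41), and replicates 4 and 5 at 48 h (7.66 and 6.87), lay under the filter limit. Its effects and their difference therefore rest on vehicle levels that signal does not measure well.

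Acute phase proteins and their receptors were among the genes lowered further at 48 h. Of 31 tested, 7 had a negative and 2 a positive difference between times (29% against 8.36% of all genes). Of these 9, 6 were treated-only. The median effect of 250 µM on the list was -0.21 at 24 h and -0.51 at 48 h. When replicate 4 alone stood for vehicle at 48 h, 4 members passed, all negative. Il1r2, the receptor that binds interleukin-1 without signalling, had the largest difference of any tested gene.

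Il1r2 read 10.65, 11.03, 11.39, 10.56 and 10.79 in vehicle at 24 h and 11.13, 11.13, 10.91, 11.05 and 11.14 at 48 h. Under 250 µM it read 10.08, 9.97, 10.41, 10.36 and 9.77 at 24 h and 6.92, 6.50, 8.29, 5.81 and 7.21 at 48 h. The treated arrays at 48 h were far below all others, and 4 of the 5 lay under the filter limit, where signal no longer measures the level well. The effect was -0.76 at 24 h and -4.13 at 48 h, and the difference was -3.36 ± 0.38 (adjusted p = 6.25e-07). With each array value under the limit raised to it, it was -2.35, and with replicate 4 alone -3.34 ± 0.58. Under 1000 µM, Il1r2 fell by 2.50 between 24 and 48 h.

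A2m, the protease inhibitor α2-macroglobulin and a main acute phase protein of the rat, kept its level until 48 h. Vehicle arrays read 15.26, 15.74, 15.86, 15.70 and 15.80 at 24 h and 15.59, 15.48, 15.51, 15.26 and 15.45 at 48 h. Treated arrays read 15.43, 15.43, 15.48, 15.48 and 15.45 at 24 h and 14.28, 13.99, 13.97, 14.24 and 14.09 at 48 h. Only the treated arrays at 48 h were separate from the other 3 groups. The effect was -0.22 at 24 h, which did not pass (adjusted p = 0.0999), and -1.34 at 48 h, a difference of -1.12 ± 0.13 (adjusted p = 8.29e-07), which also passed with replicate 4 alone (adjusted p = 0.0112).

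Serpina3n, a serine protease inhibitor of the acute phase, had effects of -0.61 at 24 h and -1.12 at 48 h. Steap4, a metalloreductase induced by inflammatory cytokines, had -1.77 and -2.56, with a difference of -0.79 ± 0.16 (adjusted p = 0.00203). Both passed with replicate 4 alone as well. The list of hepatocyte plasma proteins and liver transcription factors gave 2 positive and 2 negative of 36 genes (11.1%, against 8.36% of all genes). Its median difference was 0.11, or 0.02 with replicate 4 alone. The 2 negative genes were Ahsg and Apoa5. Ahsg, which encodes fetuin-A, went from -0.29 to -0.87. Apoa5, an apolipoprotein that lowers plasma triglyceride, went from -0.98 to -1.54. With replicate 4 alone their differences were -0.64 and -0.73. Cebpa, a transcription factor of the liver, was positive, from -0.35 to 0.09, with a difference of 0.57 (adjusted p = 0.0586) in the fit with replicate 4 alone. In the complement and coagulation list, 2 of 31 genes were positive and 3 negative (16.1% against 8.36% of all genes). C1s, a protease of the classical pathway, went from -0.60 to -1.25, and Masp1, a protease of the lectin pathway, from -0.34 to -1.07. Mbl1, a mannose-binding lectin, went from -0.14 to 0.68. Of the 31, Mbl1 alone passed with replicate 4 alone; C1s had -0.53 there and Masp1 -0.48.

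Npy, which encodes neuropeptide Y, fell in treated wells alone. Its vehicle arrays read 11.03, 11.76, 12.18, 11.82 and 12 at 24 h and 11.56, 11.81, 11.70, 12.12 and 11.69 at 48 h. Its treated arrays read 11.24, 11.21, 11.28, 11.60 and 11.03 at 24 h and 9.86, 10.08, 9.84, 10.08 and 9.87 at 48 h. Vehicle and treated arrays overlapped at 24 h and were apart at 48 h. The effect was -0.48 at 24 h and -1.83 at 48 h, with a difference of -1.35 ± 0.20 (adjusted p = 5.07e-05), or -1.69 with replicate 4 alone.

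Chemokines and NF-kB targets gave 4 positive and 1 negative of 24 tested genes (20.8% against 8.36% of all genes). Of these 5, 4 were vehicle-only. Cxcl9, a chemokine that attracts T cells, read 11.96, 11.93, 11.96, 12.11 and 12.15 in vehicle at 24 h and 10.70, 10.96, 11.09, 11.52 and 10.96 at 48 h. Treated arrays read 12.34, 12.28, 12.20, 12.32 and 12.51 at 24 h and 12.38, 12.67, 12.68, 12.60 and 12.80 at 48 h. The vehicle level fell without overlap, least in replicate 4, while treated arrays of both times overlapped. The effect was 0.31 at 24 h and 1.58 at 48 h, and the difference was 1.27 ± 0.15 (adjusted p = 1.08e-06), or 0.80 with replicate 4 alone, where Cxcl9 was the 1 member of the list that passed.

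Most interferon-induced genes fell with time in treated wells. Of 26 tested, 5 had a negative and 0 a positive difference between times (19.2% against 8.36% of all genes). With time, 17 of the 26 fell under 250 µM (6.52% of all tested genes fell) against 10 in vehicle (11.7% of all). The median effect of 250 µM was -0.002 at 24 h and -0.26 at 48 h. In 3 of the 5 genes, Isg15, Usp18 and Irf7, the effect turned from above vehicle at 24 h to below it at 48 h, both passing the test. Of the 5, 2 passed with replicate 4 alone. The summed signal of 21 Kupffer cell and leukocyte markers also fell with time. Under 250 µM it went from 14306 to 15705 at 24 h to 10789 to 12811 at 48 h. In vehicle it went from 14466 to 17334 at 24 h to 11586 to 14226 at 48 h. The effect differed between times for none of the 11 tested markers, against 8.36% of all genes. The part of this fall in the interferon result was not tested.

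Isg15 encodes a ubiquitin-like protein joined to other proteins after interferon exposure. It read 11.39, 11.17, 11.33, 11.04 and 10.59 in vehicle at 24 h and 10.47, 10.40, 10.25, 10.32 and 10.26 at 48 h. Under 250 µM it read 11.77, 11.93, 11.71, 11.35 and 11.39 at 24 h and 9.40, 9.98, 9.37, 9.25 and 9.35 at 48 h. At 24 h the treated arrays overlapped the vehicle ones from above, and at 48 h all of them lay below. The effect was 0.53 ± 0.14 at 24 h and -0.87 ± 0.14 at 48 h, a difference of -1.40 ± 0.19 (adjusted p = 2.02e-05), or -1.38 with replicate 4 alone.

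Usp18, the protease that removes ISG15 from proteins, read 11.41, 11.42, 11.71, 11.69 and 11.34 in vehicle at 24 h and 11.07, 10.86, 10.83, 11.18 and 10.83 at 48 h. Treated arrays read 11.96, 11.99, 11.72, 11.76 and 11.64 at 24 h and 10.54, 10.38, 10.51, 10.74 and 10.38 at 48 h. They overlapped vehicle at 24 h and lay below every vehicle array at 48 h. The effect went from 0.30 to -0.44 (difference -0.74 ± 0.14, adjusted p = 0.00116; -0.97 with replicate 4 alone). Irf7, a transcription factor that amplifies interferon production, went from 0.32 to -0.37 (difference -0.69 ± 0.12, adjusted p = 0.000675). Rsad2, the antiviral protein viperin, had effects of -0.16 and -1.11, and Ifih1, a sensor of double-stranded RNA, 0.14 and -0.91; these were named after their values were seen, as the remaining members that passed.

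Promoters of the interferon-induced genes that passed are shown because these members moved together. The motif, GAAA written 2 times in the same direction with 2 bases of any kind between, a core of the interferon-stimulated response element, was sought on both strands in the same RefSeq windows and was present in 3.92% of 33469. It occurred in all 3 genes with an entry, Irf7, Rsad2 and Ifih1, in capitals below; Isg15 and Usp18 had no entry. The match begins 69 bases before the start in Irf7 and 147 bases before it in Rsad2, on the opposite strand in both, and 59 bases before it in Ifih1 on the gene's strand. The windows are chr1:205799974-205800273 for Irf7, chr6:48788071-48788370 for Rsad2 and chr3:67683919-67684218 for Ifih1, all on the minus strand and written in the direction of the gene. Whether any factor bound there was not measured.
Irf7: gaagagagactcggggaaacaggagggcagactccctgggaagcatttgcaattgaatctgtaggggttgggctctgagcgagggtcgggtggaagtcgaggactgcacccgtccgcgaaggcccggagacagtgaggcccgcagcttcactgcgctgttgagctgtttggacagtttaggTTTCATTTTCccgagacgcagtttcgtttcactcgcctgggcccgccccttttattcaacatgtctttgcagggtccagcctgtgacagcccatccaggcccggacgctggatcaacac
Rsad2: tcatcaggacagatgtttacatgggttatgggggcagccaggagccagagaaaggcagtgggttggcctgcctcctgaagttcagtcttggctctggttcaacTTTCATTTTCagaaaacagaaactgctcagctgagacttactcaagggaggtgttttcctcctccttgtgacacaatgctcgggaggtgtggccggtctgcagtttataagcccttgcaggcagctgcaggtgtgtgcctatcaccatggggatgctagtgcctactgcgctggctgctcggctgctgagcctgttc
Ifih1: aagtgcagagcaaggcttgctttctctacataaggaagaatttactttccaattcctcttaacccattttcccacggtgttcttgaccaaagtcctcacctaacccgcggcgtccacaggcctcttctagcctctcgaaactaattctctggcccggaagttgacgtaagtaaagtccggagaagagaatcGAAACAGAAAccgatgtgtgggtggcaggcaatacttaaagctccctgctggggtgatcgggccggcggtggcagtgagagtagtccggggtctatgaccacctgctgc

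**Figure D4:**
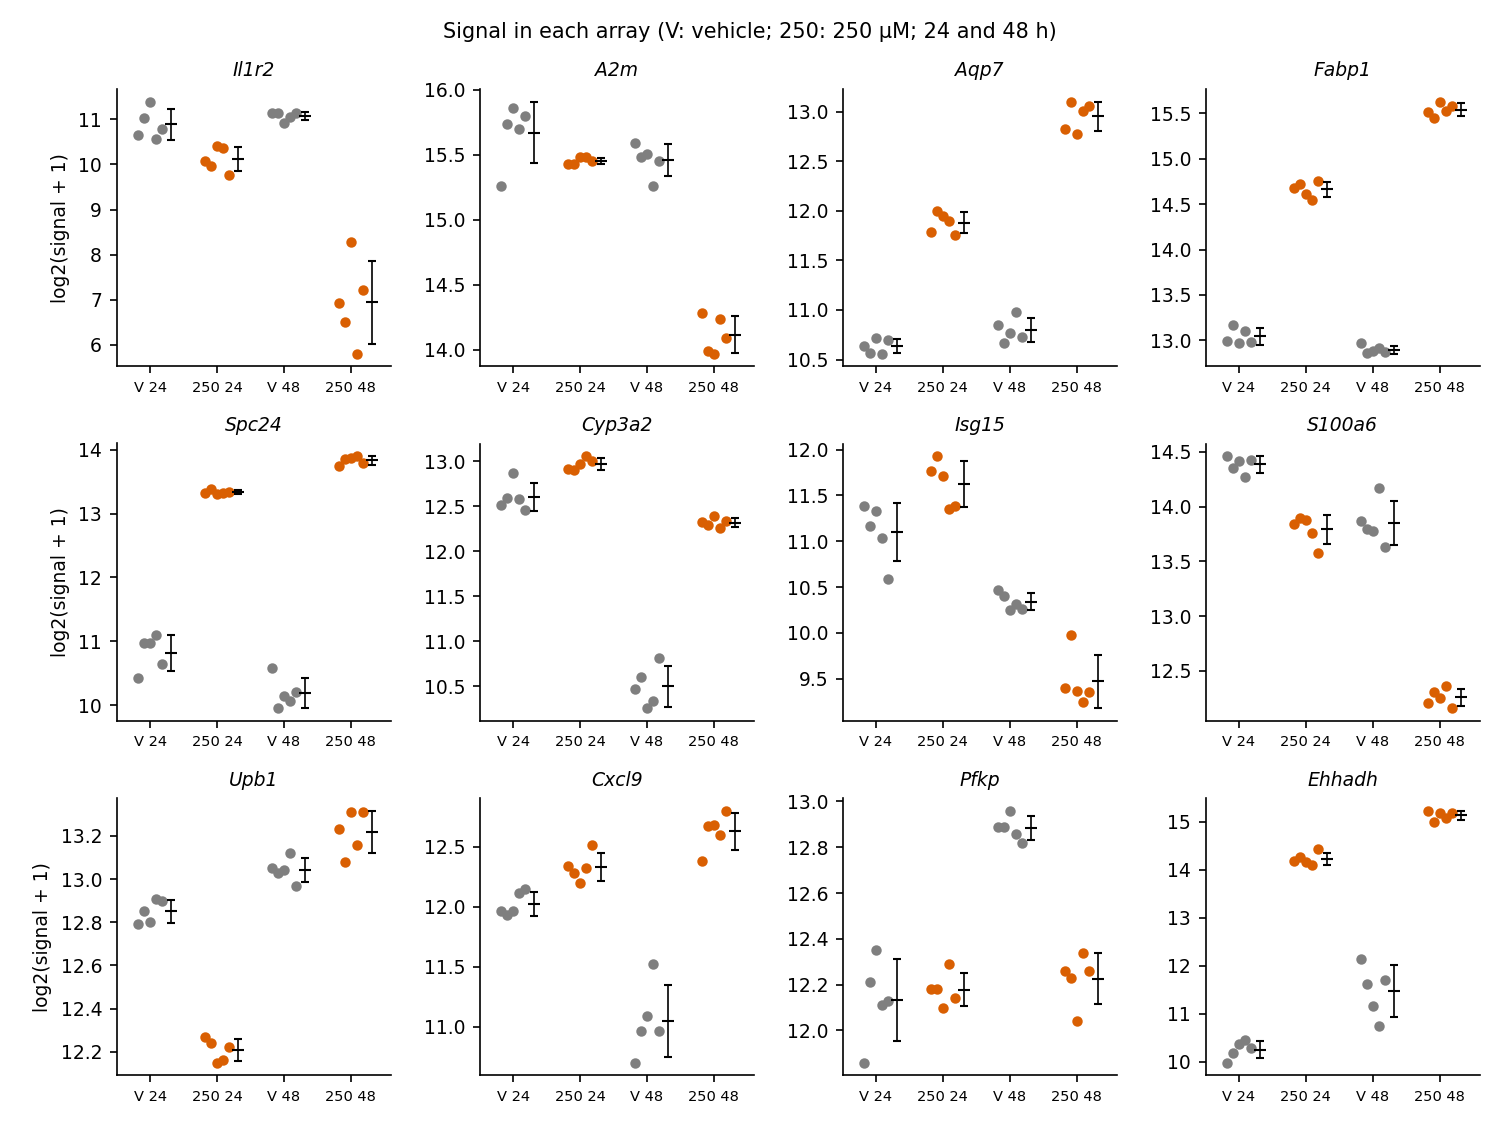
Each point is 1 array in the 4 groups (grey vehicle, orange 250 µM) for 12 genes; the vertical axis is the log2(signal + 1), with its own range in each panel, and bars are the mean and SD. Il1r2 and A2m drop in the treated arrays at 48 h, Fabp1 and Aqp7 rise there, Isg15 crosses from above to below vehicle, and in Cxcl9, Pfkp and Cyp3a2 the vehicle level moves.

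For many drug metabolism genes the effect differed between times, mostly upward. Of 63 tested, 18 had a positive and 4 a negative difference between times (34.9% against 8.36% of all genes), and the list's median difference was 0.18. In vehicle 20 fell and 10 rose with time, and under 250 µM 13 fell and 23 rose. By sorting, 8 of the 22 were treated-only, 6 moved in the same direction on both sides, 4 in opposite directions and 3 were vehicle-only. With replicate 4 alone 2 passed, and with the β-actin covariate 13, while the list's median difference was 0.19 and 0.21.

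Cyp3a2, a male-predominant cytochrome P450 of the rat that oxidises steroids and drugs, showed this most clearly. Vehicle arrays read 12.52, 12.59, 12.87, 12.58 and 12.46 at 24 h and 10.47, 10.61, 10.26, 10.34 and 10.82 at 48 h. Treated arrays read 12.92, 12.91, 12.97, 13.06 and 13 at 24 h and 12.33, 12.29, 12.39, 12.26 and 12.34 at 48 h. Both levels fell without overlap, the vehicle level with a change of -2.11 and the treated level with one of -0.65. The effect was 0.37 at 24 h and 1.82 at 48 h, a difference of 1.45 ± 0.12 (adjusted p = 1.44e-09). It was 1.62 ± 0.15 with replicate 4 alone.

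Sult2a6, a bile acid and steroid sulfotransferase, had effects of 0.37 and 1.35, with a fall in vehicle and a rise under treatment. Gsta3, a glutathione transferase, did not differ from vehicle past the test at 24 h (-0.01) and was higher by 0.38 at 48 h through its treated level. Tpmt, the thiopurine methyltransferase, turned from -0.41 at 24 h to 0.35 at 48 h as vehicle fell by 0.51 and the treated level rose by 0.26. Paralogs in these families can share probes; none of the probe sets named here carries the suffix for cross-matching transcripts.

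Bile acid genes gave 4 positive and 2 negative of 20 (30% against 8.36% of all genes). The list's median difference was -0.02, or 0.13 with replicate 4 alone. Cyp8b1, the sterol 12α-hydroxylase that sets the share of cholic acid, had effects of -0.06 at 24 h and 0.58 at 48 h. It had a treated-only rise of 0.82, and its difference with replicate 4 alone was 0.76. Slc10a1, the sodium-dependent bile acid uptake carrier, turned from -0.31 to 0.36 with a change of -0.41 in vehicle alone. Cyp7a1, which starts the conversion of cholesterol to bile acids, was lower under 250 µM at both times (-1.24 and -1.62), and the difference of -0.38 ± 0.18 missed the threshold (adjusted p = 0.21).

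Differences among amino acid breakdown genes were mostly positive. Of 51 tested in the urea cycle and amino acid list, 11 were positive and 2 negative (25.5% against 8.36% of all genes). Of these 13, 9 were treated-only. With replicate 4 alone 3 passed, all positive. Gcdh, the glutaryl-CoA dehydrogenase of lysine and tryptophan breakdown, had an effect of -0.01 at 24 h and 0.63 at 48 h. Hgd, the homogentisate dioxygenase of tyrosine breakdown, went from 0.26 to 0.94. Both passed with replicate 4 alone. Acmsd, a decarboxylase of tryptophan breakdown, went from -0.67 to 0.03 because vehicle fell by 0.90 while the treated level did not pass the time test.

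Upb1, the β-ureidopropionase of pyrimidine breakdown, turned from below to above vehicle. Vehicle arrays read 12.79, 12.85, 12.80, 12.91 and 12.90 at 24 h and 13.05, 13.03, 13.04, 13.12 and 12.97 at 48 h. Treated arrays read 12.27, 12.24, 12.15, 12.16 and 12.22 at 24 h and 13.23, 13.08, 13.31, 13.16 and 13.31 at 48 h. At 24 h all treated arrays were below vehicle, and at 48 h they overlapped it from above. The effect was -0.64 ± 0.05 at 24 h and 0.18 ± 0.05 at 48 h, a difference of 0.82 ± 0.07 (adjusted p = 3.09e-09), or 0.74 with replicate 4 alone.

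Many cholesterol synthesis genes rose with time on both sides, and part of them rose further under treatment. Of 23, 8 had a positive and 0 a negative difference between times (34.8% against 8.36% of all genes). With time, 14 of the 23 rose in vehicle (16.4% of all genes rose) and 15 under 250 µM (6.86%). Msmo1, the sterol C4 methyl oxidase, had effects of 0.01 and 0.59, and Nsdhl, the dehydrogenase of the same demethylation, 0.09 and 0.43, both treated-only. Insig2, a retention protein of the sterol sensor, went from 0.26 to 1.10 with a vehicle-only change of -0.72. With replicate 4 alone the list's median difference was 0.25, against 0.23 with all arrays. The differences of Msmo1, Nsdhl and Insig2, which were named for their small p-values, were smaller there (0.32, 0.27 and 0.42).

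Genes of fatty acid and triglyceride synthesis gave 4 positive and 1 negative of 32 (15.6% against 8.36% of all genes). Fads1, the Δ5 desaturase, read 11.41, 10.60, 10.50, 10.72 and 10.49 in vehicle at 24 h and 12.24, 11.93, 11.94, 11.39 and 11.79 at 48 h. Treated arrays read 11.51, 11.52, 11.20, 11.08 and 11.46 at 24 h and 13.32, 13.12, 13.13, 13.28 and 13.27 at 48 h. Both levels rose, and the ranges of vehicle met between times through 24 h replicate 1 and 48 h replicate 4. The effect went from 0.61 to 1.37, a difference of 0.76 ± 0.18 (adjusted p = 0.00929), or 1.22 with replicate 4 alone, where Fads1 was the 1 gene of the list that passed. Dgat2, which makes triglyceride, had a smaller effect at 48 h (0.18) than at 24 h (0.44).

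Cytoskeletal, matrix and adhesion genes had negative differences only: 4 of 40 in the actin and dedifferentiation list and 7 of 43 in the matrix list. The shares of 10% and 16.3% stand against 8.36% of all genes. With replicate 4 alone 1 and 0 passed, with the β-actin covariate 1 and 1, with array medians centred 1 and 3, and after quantile normalization 8 and 6, all negative. S100a6, a calcium-binding protein that rises when hepatocytes dedifferentiate, read 14.46, 14.35, 14.42, 14.27 and 14.43 in vehicle at 24 h and 13.87, 13.80, 13.78, 14.17 and 13.63 at 48 h. Treated arrays read 13.84, 13.90, 13.88, 13.76 and 13.58 at 24 h and 12.21, 12.31, 12.25, 12.36 and 12.16 at 48 h. Both levels fell without overlap between times, the treated one by more. The effect was -0.59 at 24 h and -1.59 at 48 h, a difference of -1.0 ± 0.11 (adjusted p = 4.03e-07), or -1.32 with replicate 4 alone.

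Fn1, the matrix protein fibronectin, went from -0.84 to -1.51 through a treated-only change of -0.78. Lamb3, a laminin chain, rose by 1.61 in vehicle and 0.56 under treatment, and its effect went from 0.28, which did not pass, to -0.77. Its vehicle arrays at 48 h read 11.37, 11.11, 11.25, 10.51 and 10.87, replicate 4 lowest, and the difference of -1.05 was -0.54 with replicate 4 alone and did not pass. Ccn2, a matricellular target of TGF-β and YAP, had effects of -3.04 at 24 h and -3.15 at 48 h, and the difference did not pass (adjusted p = 0.69).

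Where subunits of oxidative phosphorylation passed, it was mostly the vehicle level that moved. Of 75 tested, 19 had a positive and 0 a negative difference (25.3% against 8.36% of all genes). Of these 19, 17 were vehicle-only. With time, 34 of the 75 fell in vehicle (11.7% of all genes fell) and 2 under 250 µM. Ndufv3 and Ndufc1, of complex I, went from 0.15 to 0.62 and from 0.16 to 0.50, and Uqcrfs1, the Rieske protein of complex III, from 0.12 to 0.46. With replicate 4 alone 0 of 75 passed, with the covariate 2, and the list's median difference was 0.18 with all arrays, 0.09 with replicate 4 alone and 0.20 with the covariate. Mitochondrial ribosomal proteins were positive in 8 of 73 (11%) and proteasome subunits in 3 of 36 (8.33%), against 8.36% of all genes. None of either passed with the covariate. Their median differences were 0.12 and 0.07 with all arrays, and 0.04 and 0.04 with replicate 4 alone. Cytosolic ribosomal proteins passed in 0 of 42 as deposited, with a median difference of 0.09, and in 3 of 42, all negative, after quantile normalization, with a median of -0.04.

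**Figure D5:**
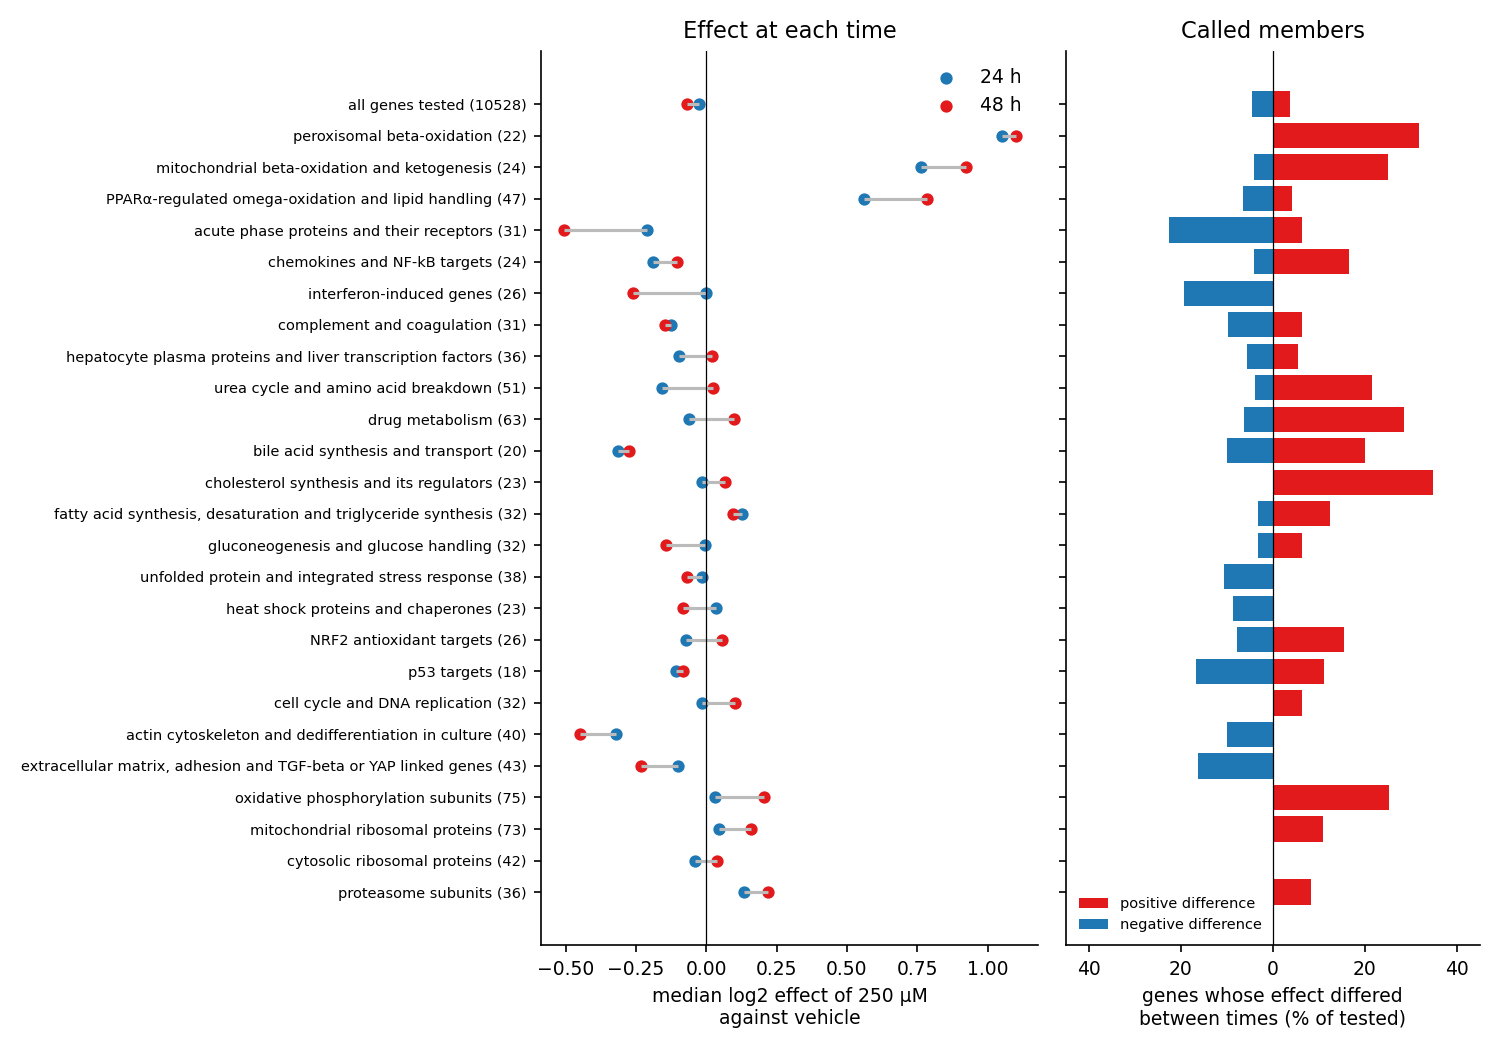
Left: median log2 effect of 250 µM against vehicle at 24 h (blue) and 48 h (red) for each list, with the number of tested genes in brackets. Right: share of each list whose effect differed between times, positive to the right and negative to the left; the fatty acid oxidation lists sit between 0.56 and 1.10 on the left, and interferon genes have negative differences only.

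Among the stress lists, the shares that passed were 10.5% for the unfolded protein and integrated stress response, 8.7% for heat shock proteins, 23.1% for NRF2 antioxidant targets and 27.8% for p53 targets, against 8.36% of all genes. In the unfolded protein list 4 of 38 genes were negative, all vehicle-only. None of the 38 passed with array medians centred, with the covariate or with replicate 4 alone, and 7 did after quantile normalization. They included Asns, the asparagine synthetase, Atf5, a stress transcription factor, and Ero1a, an oxidase of the endoplasmic reticulum, whose differences lay between -0.23 and -0.07 with replicate 4 alone. Of 23 heat shock genes 2 were negative, both vehicle-only; Cryab, a small heat shock protein, went from -0.32 to -0.93 as vehicle rose by 0.58, and it passed with replicate 4 alone (-0.94).

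Among NRF2 targets 4 of 26 were positive and 2 negative, and 0 passed with replicate 4 alone. Slc7a11, the cystine carrier, went from -0.49 to -1.31, and its difference of -0.82 was -0.49 with replicate 4 alone. Gsr, the glutathione reductase, went from 0.10 to 0.93, a difference of 0.83 that was 0.30 with replicate 4 alone. For Hmox1, the heme oxygenase, which went from 0.05 to 0.37, these values were 0.32 and 0.08. Among p53 targets 2 of 18 were positive and 3 negative, and again 0 passed with replicate 4 alone. Ccng1, cyclin G1, went from -0.54 to -1.10 and Aen, a nuclease, from -0.11 to -0.66, with differences of -0.41 and -0.53 with replicate 4 alone. Gadd45a, a growth arrest gene, went from 0.25 to 0.71, a difference of 0.46 that was 0.15 with replicate 4 alone.

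Cell cycle genes passed in 2 of 32 (6.25%, against 8.36% of all genes), both positive. Spc24, a subunit of the kinetochore, read 10.42, 10.97, 10.98, 11.10 and 10.64 in vehicle at 24 h and 10.58, 9.96, 10.15, 10.06 and 10.21 at 48 h. Treated arrays read 13.32, 13.38, 13.30, 13.32 and 13.34 at 24 h and 13.74, 13.86, 13.87, 13.90 and 13.79 at 48 h. Treated arrays rose without overlap, and vehicle arrays fell with overlap. The effect went from 2.51 to 3.64, a difference of 1.13 ± 0.13 (adjusted p = 8.25e-07), or 1.26 with replicate 4 alone, where it was the 1 cell cycle gene that passed. Tk1, a thymidine kinase of DNA synthesis, went from 0.22, which did not pass, to 0.79.

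Glucose genes passed in 3 of 32 (9.38%, against 8.36% of all genes), 2 positive and 1 negative. The list's median difference was -0.06, or -0.03 with replicate 4 alone. Slc2a1, the glucose carrier GLUT1, rose by 0.45 in vehicle alone and its effect went from 0.01 to -0.37, with a difference of -0.38, or -0.41 with replicate 4 alone. Pfkp, the platelet form of phosphofructokinase, was in no list and had the same shape. It read 11.86, 12.21, 12.35, 12.11 and 12.13 in vehicle at 24 h and 12.89, 12.89, 12.96, 12.86 and 12.82 at 48 h. Treated arrays read 12.18, 12.18, 12.10, 12.29 and 12.14 at 24 h and 12.26, 12.23, 12.04, 12.34 and 12.26 at 48 h. Vehicle at 48 h stood above the other 3 groups, replicate 4 with it, and the difference was -0.70 ± 0.10 (adjusted p = 3.06e-05), or -0.69 with replicate 4 alone.

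Arrdc4, an arrestin-domain protein of glucose-responsive expression, moved oppositely on the sides. Vehicle arrays read 11.79, 11.79, 11.79, 11.81 and 11.78 at 24 h and 12.35, 12.37, 12.43, 11.98 and 12.41 at 48 h. Treated arrays read 11.11, 11.12, 11.16, 11.11 and 11.12 at 24 h and 10.81, 10.52, 10.29, 10.57 and 10.64 at 48 h. No group overlapped another. The effect went from -0.67 to -1.74, a difference of -1.07 ± 0.12 (adjusted p = 5.24e-07), or -0.75 with replicate 4 alone.

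The other large differences belonged to genes of no list. Btc, the growth factor betacellulin, had a difference of 1.45 ± 0.42; its vehicle arrays at 48 h read 7.27, 7.14, 8.76, 9.28 and 7.13, and with replicate 4 alone the difference was 0.08. Sh3bgrl1 (1.08) and Dhrs9 (1.20), a retinol dehydrogenase, were positive, and Prrc2a (-1.51), Mthfd1l (-1.19), a mitochondrial folate enzyme, Celf5 (-1.15) and Bmp2k (-1.14) negative; all 6 were vehicle-only. Tdh, a threonine dehydrogenase (1.44), Casp1, the protease that matures interleukin-1β (1.12), Tmie (-1.08) and Ints7 (-1.27) were treated-only, and Dusp6, a phosphatase of ERK (1.08), and Tbccd1 (-1.21) passed in neither time test. None of these 12 passed with replicate 4 alone, where the differences of Sh3bgrl1 (0.46), Prrc2a (-1.11), Mthfd1l (-0.79), Bmp2k (-0.39), Casp1 (1.06) and Dusp6 (0.97) were smaller and those of Dhrs9 (1.46), Celf5 (-1.34), Tdh (1.77), Tmie (-1.21), Ints7 (-1.71) and Tbccd1 (-1.29) were not. At low signal, Syn1, a synapsin, had -2.10, Mul1, a mitochondrial ubiquitin ligase, -1.99 and Ttll9 1.07. These were -1.39, -1.37 and 0.29 with each array value under the filter limit raised to it. Single arrays of Btc, Tdh, Casp1, Tmie, Ints7, Dusp6, Mthfd1l and Celf5 also lay under this limit, although their group means did not. Their differences are given without that step. Actr2-ps1, a pseudogene whose probe set may also bind RNA of the parent gene, had 1.35 and turned to -0.05.

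Beside the 880 genes at 250 µM, the effect of 1000 µM differed between times for 102 genes (0.969%), a comparison that shares the vehicle arrays. Its values were -2.70 for Il1r2, -0.78 for A2m, 0.78 for Fabp1, 0.66 for Aqp7, 1.66 for Cyp3a2 and -1.05 for S100a6, all passing, and -0.34 for Isg15, which did not. The change with time under 250 µM was also tested directly against that under 1000 µM, without vehicle, a comparison added after results were seen. It differed for 2 genes (0.019%), both lower under 250 µM, with 768 genes at an unadjusted p under 0.05. They were Isg15, which fell by 2.16 under 250 µM and by 1.10 under 1000 µM (adjusted p = 0.024), and Ints7, an Integrator subunit (-1.51 and 0.67, adjusted p = 0.0171).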

How the data were processed

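RNA was measured on Affymetrix arrays in 30 wells, 5 in each of 6 groups taken from the sample titles. What the authors deposited is 1 linear intensity for each probe set and array. They used MAS5, a summary method with a built-in array scaling, per the submitters' processing notes; no version is given in the sources used here. Trimmed of 2% on either side, array means ran from 1500.6 to 1500.7, so no scaling was added.

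Signals became log2(signal + 1). Of 31099 probe sets, 57 controls and the 40% of lowest mean were left out (limit 7.88 log2, a signal of 234.2), and so were 340 of the remaining 18625 that named several genes. Genes were named from the platform annotation, with 20764 of 20832 single-gene probe sets matched to RefSeq by gene ID; where a gene had several, the probe set of highest mean over 30 arrays was used, leaving 10528 genes. limma 3.58.1 in R 4.3.3 fitted the 6 group means to the 30 arrays jointly, with 24 residual degrees of freedom and a mean-variance trend, with Benjamini-Hochberg adjustment over 10528 genes and a threshold of 0.05. With 1 array left in a group, that array was assumed to vary like the other groups. Because MAS5 fixes each array's mean, a change is relative to all transcripts; the number of arrays limits the precision.

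Members, lists (29, the genes of all of which are counted above or in the lists' plot) and tests were chosen with earlier results of these data known. Genes were named by size of the difference, by smallest p in each sorting class and list, and from a fixed set. On simulated data, 79 of 100 genes changed by a log2 of 1 and 42 of 100 changed by 0.5 were recovered, with 6 of 10328 unchanged genes called. The simulated noise was independent between genes and arrays, with the same spread of a gene in all groups. A shift shared by several vehicle arrays at 48 h was not simulated, so these rates do not cover it. Alternatives were the scaling, filter, pseudocount, trend, probe set choice, left-out arrays, the β-actin ratio as a covariate and the runs of serial numbers in the titles as a block.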

Additional observations from a re-analysis of the deposited data

Results flagged for a closer look

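The test of the difference itself found that the 250 µM effect was not the same at 24 and 48 h for 880 genes. In 96 groups of 5 arrays, 8 held an array whose gap to the nearest other was over 0.71 of the group's range; chance gives about 1 in 20. Isg15 had its highest array under 250 µM at 48 h at a log2 signal of 9.98, and Fn1 had its highest there at 13.71. Tmem106a had its lowest array in vehicle at 24 h at 11.1 and under 250 µM at 48 h at 10.64. A2m had its lowest vehicle array at 24 h at 15.26. Arrdc4 had its highest array in vehicle at 24 h at 11.81 and under 250 µM at 24 h at 11.16, both in groups of very narrow range, and its lowest vehicle array at 48 h at 11.98, which was replicate 4.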

How the results depend on the processing

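Leaving out each array in turn gave 609 to 1789 genes with a difference between times (289 to 702 positive, 317 to 1087 negative), the highest count without vehicle replicate 4 at 48 h. By sorting this was 310 to 1215 vehicle-only, 159 to 300 treated-only, 31 to 92 opposite, 33 to 99 in the same direction and 35 to 113 in neither; time in vehicle gave 2425 to 3690 and time under 250 µM 1132 to 1561. With replicate 4 as the only vehicle array at 48 h, 58 genes passed (36 positive, 22 negative; 9, 43, 3, 2 and 1 in the same order of classes) and 146 changed with time in vehicle. One of the other 4 arrays alone gave at the lowest 336 genes (163 positive, 173 negative; 190, 103, 17, 16 and 10 by class, time in vehicle 1080) and at the highest 805 vehicle-only and 84 same-direction genes. The β-actin covariate gave 248 (160 positive, 88 negative; 46 vehicle-only, 14 opposite, 26 same direction, 10 neither; 749 for time in vehicle). Centred array medians gave 219 negative and 29 same-direction genes. The 20 arrays alone gave 606 genes (293 positive, 313 negative), with 339 vehicle-only, 167 treated-only and 30 in neither class. Sorting by unadjusted p gave 175 opposite, 71 same-direction and 0 in neither, and sorting by size 229, 12 and 0. With replicate 4 alone, values turned direction for Actr2-ps1 (-0.054), Ehhadh (0.43), Acot1 (0.10), Cpt1a (0.43), Pdk4 (0.14), Ccn2 (0.032) and Cyp7a1 (0.035); with the covariate for Ehhadh (0.17), Acot1 (0.13), Cpt1a (0.22) and Ccn2 (0.016); after quantile normalization for Alb (-0.005). None of these but Actr2-ps1 had passed, and the cause was not tested. A pseudocount of 50 changed the call of 0 of 109 named genes. The titles carry serial numbers that run through the 6 groups 5 times. A replicate block by these 5 runs, added after results were seen, gave 1041 genes, 870 of them among the 880, with all 880 in the same direction and the call of 0 of 109 named genes changed. Of 75 array pairs of 1 run and different groups, 19 had deviations from the group means correlated over 0.1 (-0.12 to 0.22, median 0.04). For 14 of 30 arrays, the closest array of another group was of the same run. What the runs stand for is not stated, and their part in the results was not tested.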
